A study of Homo sapiens with 14 samples.

Results

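The SR proteins are a family of splicing factors, and 10 genes that encode them or their close relatives were followed: SRSF1, SRSF2, SRSF3, SRSF4, SRSF5, SRSF6, SRSF7, SRSF11, TRA2A and TRA2B. They were taken by gene name from a table of 58780 genes, in which 11 rows carry one of the 10 names. The cells were A549, an established line from a human lung adenocarcinoma, and the assay was PRO-seq (precision run-on sequencing), which reads RNA that engaged polymerases extend in permeabilized cells. GSK591 blocks PRMT5, the main enzyme for symmetric dimethylation of arginine, MS023 blocks the type I enzymes, which make asymmetric dimethylarginine, and dexamethasone (Dex) is a synthetic glucocorticoid. There were 14 libraries in 7 groups of 2. The groups were untreated cells, cells given 1 µM GSK591 or 1 µM MS023 for 15 min, cells given 100 nM Dex together with GSK591 or MS023 at that dose for 15 min, and cells kept for 3 h with GSK591 or MS023 alone. All 7 groups, the untreated cells included, were in 0.01% DMSO. The untreated cells carry a 15 min label, so at 3 h the effect of an inhibitor and that of time in culture cannot be told apart. None of the 14 libraries came from cells given Dex alone. Against untreated cells, the effect of Dex and that of the inhibitor given with it therefore cannot be told apart.

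SR proteins bind short sequences in exons through RNA recognition motifs, and through their arginine-serine (RS) domains they help the spliceosome choose splice sites. SRPK and CLK kinases phosphorylate the RS domain, and hnRNP proteins often act against SR proteins at the same exons. Many SR genes limit their own output through ultraconserved poison exons, which send the transcript to nonsense-mediated decay. Arginine methylation touches this system at several points: PRMT5 methylates Sm proteins of the spliceosome, and arginines of some SR and hnRNP proteins are methylated too. PRO-seq sees engaged polymerase at the SR genes and not the splicing or decay of their transcripts.

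Total counts per library lay between 5768312 and 9606938, and mitochondrial genes took 39.8% to 58.0% of them. The pair of libraries given GSK591 with Dex stood furthest apart, where the chi-square of their counts over genes, divided by its degrees of freedom, was 15.4 against 2.15 to 6.05 in the other pairs. Replicate 2 of that pair had the highest mitochondrial share, and replicate 2 of MS023 at 15 min had the lowest. Of 10 genes listed as markers of A549 or of lung epithelium, KRT8 (308 CPM in untreated cells, where CPM is the read count scaled to library size), KRT18 (141), AKR1B10 (258) and AKR1C1 (253) were high, while EPCAM (2.82 CPM) and SFTPC (2.11) were low and NKX2-1 had 0 to 3 counts per library. Markers of blood cells, endothelium and fibroblasts had at most 8 counts per library, CD3E had 0, and COL1A1 had 40 to 69. The labels do not say whether the libraries of a group came from separate cultures, so p-values measure the spread between these libraries, which may be technical. Fewer cells and less RNA per cell cannot be told apart in bulk libraries, and all changes are relative to the bulk of genes.

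Exons of 8 of the 10 genes share no sequence with another annotated gene, or in the case of SRSF4 only 1.9% (GENCODE release 29, GRCh38). SRSF1 (ENSG00000136450.12, chromosome 17, 58003360 to 58007346, minus strand) shares 60.7% of its 3340 exonic bases with other genes. The second row named SRSF1 is AC015813.2 (ENSG00000266086.2, chromosome 17, 57989038 to 58007246, minus strand). It shares 1890 of its 2270 exonic bases with SRSF1, had 0 or 1 count per library and was too low to test. SRSF1 itself had 21 to 44 counts per library, far fewer than the 99 or more of the other 9 genes, so its values are uncertain. SRSF2 (chromosome 17, 76734115 to 76737374, minus strand) shares 36.7% of its 3017 exonic bases, of which 1106 lie opposite MFSD11 on the other strand. The strand setting of the counting is not given in the sources used here, so reads of SRSF2 and MFSD11 could be mixed or lost. The remaining genes are SRSF4 (chromosome 1, 29147743 to 29181987, minus), SRSF11 (chromosome 1, 70205682 to 70253052, plus), SRSF7 (chromosome 2, 38743599 to 38751494, minus) and TRA2B (chromosome 3, 185915906 to 185938136, minus). SRSF3 lies on chromosome 6 (36594353 to 36605600, plus), TRA2A on chromosome 7 (23504780 to 23532041, minus), SRSF5 on chromosome 14 (69726900 to 69772005, plus) and SRSF6 on chromosome 20 (43457928 to 43464247, plus).

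PRO-seq reports on polymerase that starts at promoters, and the promoters of 4 members are shown: SRSF4 and SRSF7, which were called in a comparison, and SRSF6 and TRA2B, whose libraries with Dex or of 3 h stood apart from all others. SRSF2 and TRA2A, which were also called, have no promoter printed. They are RefSeq windows on GRCh38.p14, from 250 bases before to 50 bases after the start of transcription, written 5′ to 3′ on the gene's strand. Capitals mark the core of a GC box (GGGCGG), an ETS-type core (TTCCGG), the left part of a cAMP response element (TGACG) and the CCAAT box (CCAAT), each as written or as its reverse complement.
SRSF4, chr1:29181851-29182150, minus strand: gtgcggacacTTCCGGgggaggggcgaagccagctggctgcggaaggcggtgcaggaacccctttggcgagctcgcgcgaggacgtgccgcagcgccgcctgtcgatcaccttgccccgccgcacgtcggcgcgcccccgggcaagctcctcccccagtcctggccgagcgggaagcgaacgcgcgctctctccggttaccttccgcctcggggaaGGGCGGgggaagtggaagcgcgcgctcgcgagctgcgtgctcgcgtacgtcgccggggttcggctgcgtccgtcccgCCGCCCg
SRSF7, chr2:38751445-38751744, minus strand: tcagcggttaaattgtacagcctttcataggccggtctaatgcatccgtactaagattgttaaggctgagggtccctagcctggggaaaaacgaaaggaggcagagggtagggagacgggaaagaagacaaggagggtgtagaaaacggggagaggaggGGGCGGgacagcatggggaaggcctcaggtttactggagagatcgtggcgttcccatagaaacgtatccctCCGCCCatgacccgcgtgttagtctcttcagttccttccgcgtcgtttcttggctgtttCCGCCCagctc
SRSF6, chr20:43457646-43457945, plus strand: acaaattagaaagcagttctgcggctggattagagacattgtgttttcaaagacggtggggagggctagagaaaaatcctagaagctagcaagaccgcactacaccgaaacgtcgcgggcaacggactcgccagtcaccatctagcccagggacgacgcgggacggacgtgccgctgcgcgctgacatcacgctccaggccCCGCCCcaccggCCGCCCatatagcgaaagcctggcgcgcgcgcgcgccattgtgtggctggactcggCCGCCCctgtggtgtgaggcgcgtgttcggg
TRA2B, chr3:185937965-185938264, minus strand: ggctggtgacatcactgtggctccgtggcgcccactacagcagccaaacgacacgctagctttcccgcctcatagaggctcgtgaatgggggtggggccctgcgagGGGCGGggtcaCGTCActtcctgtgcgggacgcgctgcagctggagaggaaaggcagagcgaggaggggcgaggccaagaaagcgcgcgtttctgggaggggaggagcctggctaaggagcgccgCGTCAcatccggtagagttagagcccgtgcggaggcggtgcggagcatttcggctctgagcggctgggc

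GGGCGG occurs 3 times in the SRSF7 window, 3 times in that of SRSF6, 2 times in that of SRSF4 and 1 time in that of TRA2B. TRA2B also holds TGACG 2 times, and SRSF4 holds TTCCGG 1 time. Of the 10 members, 8 have promoters in the RefSeq data used, with 10 entries because SRSF7 and SRSF11 have 2 starts each. GGGCGG is in 6 of these 10 entries and in 45.0% of 35116 promoters of the same length, and TGACG is in 7 of 10 against 24.6% of all promoters. The 2 SRSF7 windows overlap and hold the same 3 GGGCGG sites, so these sites are counted in both entries. For TGACG both entries of SRSF11 are counted. CCAAT is in 1 of 10 entries (34.6% of all), that of SRSF3, TATAAA in 3 (11.5%) and TTCCGG in 2 (17.2%). AGAACA, a part of the glucocorticoid response element, is in 1 of 10 entries, the other start of SRSF7, against 14.8% of all promoters, and CACGTG is in 0 of 10 against 7.26%. These matches are letters in a window and say nothing of binding.

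The PRO-seq read levels of the SR genes differed widely in untreated cells. Counts per gene do not show where along a gene the polymerases stood. Per kilobase of annotated exon, SRSF7, which encodes a zinc knuckle SR protein that also takes part in mRNA export, was highest at 50.8 ± 2.9 CPM per kb (SD, n = 2, as for all levels that follow). SRSF6 followed at 19.9 ± 1.5 CPM per kb and SRSF3, which encodes the smallest SR protein, at 12.0 ± 1.1 CPM per kb. Below these stood SRSF5 at 8.60 ± 0.19, TRA2A at 8.09 ± 0.36 and SRSF2 at 8.06 ± 0.36 CPM per kb. TRA2B (4.37 ± 0.36 CPM per kb), SRSF4 (3.54 ± 0.24) and SRSF11 (3.36 ± 0.25) were lower, and SRSF1 was lowest at 1.24 ± 0.25 CPM per kb. Reads of SRSF1 may be missing from its counts, as given above, so its place is uncertain. Among neighbours in this order, the library ranges of TRA2A and SRSF2 overlapped, as did those of SRSF4 and SRSF11, and the others did not. With the same whole counts divided by only the exonic length that no other gene shares, SRSF2 came to 12.7 CPM per kb, which would place it beside SRSF3. SRSF1 came to 3.14 CPM per kb. These values hold only if reads in shared stretches were left out of the counts, which is not known. On its own strand SRSF2 shares 3.3% of its exonic bases, so if reads were counted by strand the 12.7 would not apply. The sources used here do not say whether exons or whole gene bodies were counted, and this decides which length is the right divisor. Per kilobase of gene span, tried after the values were seen, SRSF7 (26.0 ± 1.5 CPM per kb) and SRSF6 (14.5 ± 1.1) again came highest, but SRSF2 (7.46 ± 0.33) stood level with SRSF3 (7.59 ± 0.68). SRSF5 and TRA2A came to 1.02 ± 0.02 and 1.04 ± 0.05 CPM per kb of span, level with SRSF1 (1.04 ± 0.21), so the order below SRSF6 depends on the divisor.

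**Figure D1:**
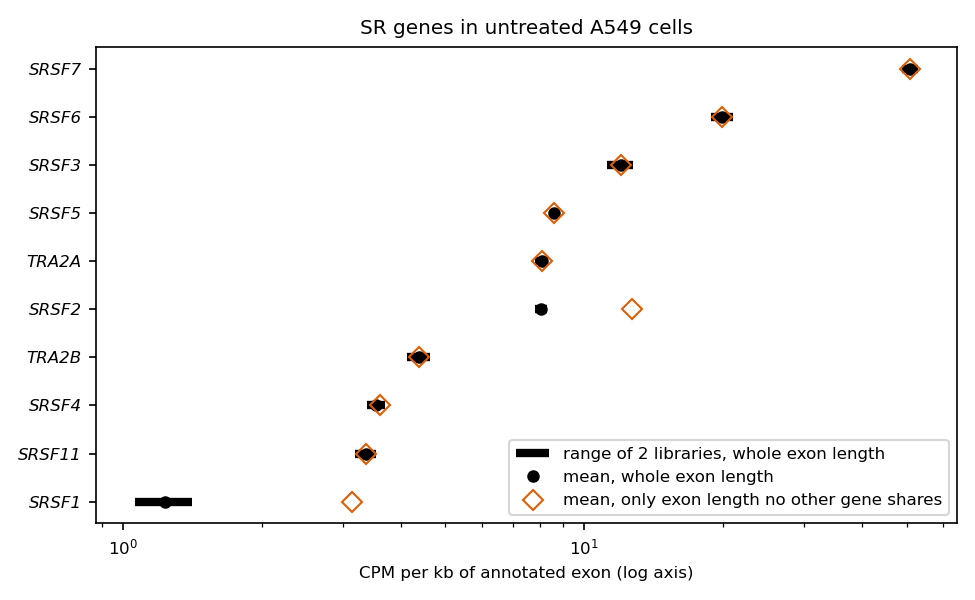
Levels of the 10 SR genes in untreated cells, in CPM per kilobase of annotated exon on a log axis. Bars give the range of the 2 libraries and dots the mean over the whole exon length. Diamonds give the same whole counts divided by the length that no other gene shares. SRSF7 stands highest at 50.8 CPM per kb, and the diamonds depart from the dots for SRSF2 and SRSF1.

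Across the 7 groups the levels moved little. The ratio of the highest to the lowest group mean was 1.55 for SRSF2, 1.48 for TRA2A, 1.41 for SRSF4 and 1.37 for SRSF7, and between 1.18 (SRSF11) and 1.29 (SRSF1) for the other 6 genes. The group with the highest mean differed between genes. It was untreated cells for SRSF2, MS023 at 15 min for SRSF7, GSK591 at 15 min for SRSF5, and GSK591 at 3 h for SRSF1. SRSF3, SRSF6, SRSF11 and TRA2B were highest with GSK591 and Dex, and SRSF4 and TRA2A with MS023 and Dex. The lowest means of SRSF6, SRSF7 and TRA2A were in cells given MS023 for 3 h, and those of SRSF3 and TRA2B in cells given GSK591 for 3 h.

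**Figure D2:**
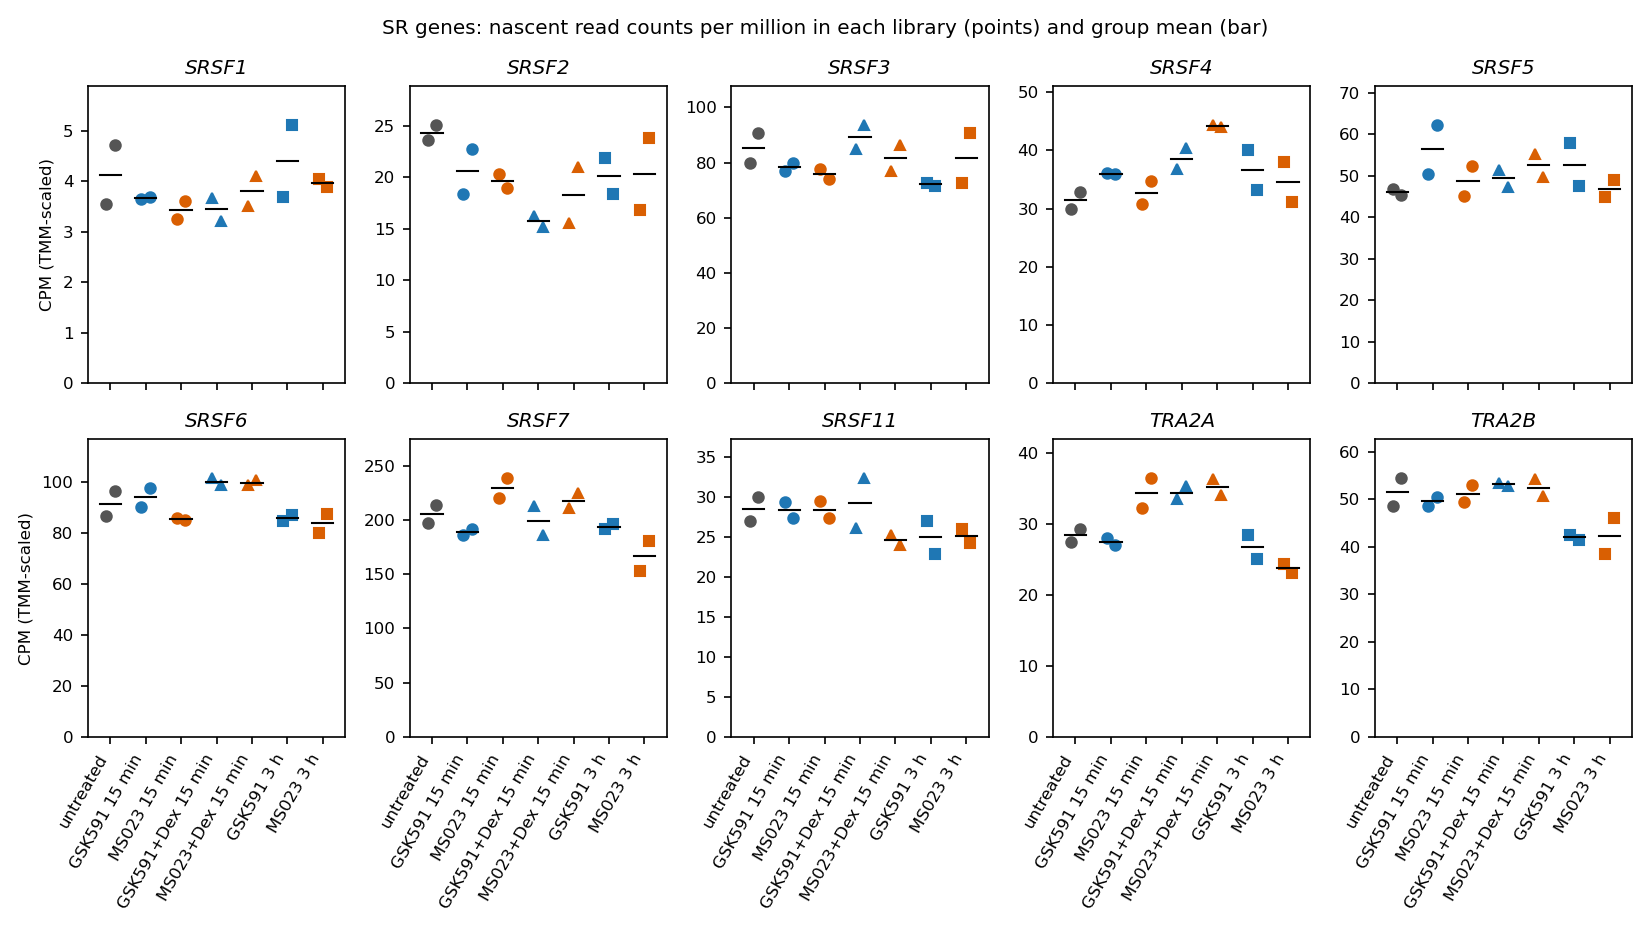
TMM-scaled read counts (CPM) of the 10 SR genes in each of the 14 libraries, 1 panel per gene, each axis starting at 0. Points are libraries and bars are means of 2. The squares at the right of the TRA2B panel, the 4 libraries of 3 h, lie between 38.4 and 46.1 CPM, below all other points, and the triangles of SRSF6, the 4 libraries with Dex, lie between 98.7 and 101.4 CPM.

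After 15 min of either inhibitor alone, no SR gene passed the test against untreated cells. Genes were called at an adjusted p under 0.05 in edgeR's quasi-likelihood test. With GSK591, 0 of 10 were called, 1 had an unadjusted p under 0.05, and of the 21910 genes tested 0.306% were called and 6.85% had an unadjusted p under 0.05. With MS023, again 0 of 10 were called and 1 had an unadjusted p under 0.05, against 0.183% and 8.08% of all genes. DESeq2 also called 0 members in both. The members' median log2 fold change was -0.05 with GSK591 and -0.01 with MS023, where all genes had 0.02 and 0.00. The member furthest from 0 with GSK591 was SRSF5, whose product carries tandem RNA recognition motifs, as do those of SRSF4 and SRSF6. SRSF5 stood at 46.8 and 45.3 CPM in untreated cells and at 50.4 and 62.2 CPM with GSK591, a log2 difference of 0.29 ± 0.11 (SE, adjusted p = 0.53). The GSK591 libraries differed from each other by more than the groups' nearest values did.

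With Dex beside GSK591 for 15 min, 1 of 10 SR genes was called against untreated cells, SRSF2, where 5.85% of all genes were called and 2.64% were called lower. Among the 5889 genes with a mean of 19.8 to 200 CPM, the range of 9 of the 10 members, 11.5% were called and 5.99% lower, so 1 of 10 is near the share called at this level. SRSF2 encodes SC35, an SR protein that stays in the nucleus and marks nuclear speckles. It stood at 23.6 and 25.1 CPM in the untreated libraries and at 16.3 and 15.2 CPM with GSK591 and Dex. The 2 treated libraries were among the 3 lowest of all 14. SRSF2 fell by 0.63 ± 0.16 on the log2 scale (adjusted p = 0.013), to 0.647 of the untreated level. Without untreated replicate 1, without untreated replicate 2 or without replicate 2 of GSK591 with Dex the adjusted p was 0.064, 0.11 and 0.098, with log2 differences of -0.68, -0.58 and -0.57. MFSD11, which overlaps SRSF2 on the other strand, differed by 0.05 ± 0.13 in this comparison (adjusted p = 0.89), at 37.4 ± 8.5 CPM (SD). Against untreated cells it was called higher with GSK591 at 3 h (0.46, adjusted p = 0.0063). It differed, uncalled, by 0.32 with GSK591 at 15 min, 0.30 with MS023 and Dex and 0.32 with MS023 at 3 h. With MS023 at 15 min the difference was -0.08. Whether reads of MFSD11 enter the counts of SRSF2 was not tested.

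SRSF2 was below its untreated level in most other treated libraries as well. It stood at 18.4 and 22.8 CPM with GSK591 for 15 min, 20.3 and 18.9 with MS023 for 15 min, and 15.5 and 21.0 with MS023 and Dex. At 3 h it stood at 21.8 and 18.4 CPM with GSK591 and at 16.8 and 23.8 with MS023. Thus 11 of the 12 treated libraries were below the lower untreated library, and the other lay between both. This pattern, seen for 3.51% of genes and for 1 of the 10 members, was picked out after the values were seen. It rests on the 2 untreated libraries, and the test called it in none of the 5 other treatments (adjusted p 0.094 to 0.86). Added to GSK591, Dex gave SRSF2 a difference of -0.39 ± 0.17 (adjusted p = 0.22).

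With Dex beside MS023 for 15 min, 1 of 10 SR genes was called against untreated cells, SRSF4, where 7.66% of all genes were called and 4.99% were called higher. Of genes at the members' level 14.2% were called and 8.8% higher. SRSF4 encodes SRp75, the SR protein with the longest RS domain. Its libraries stood at 30.0 and 33.0 CPM untreated and at 44.4 and 44.1 CPM with MS023 and Dex, the 2 highest of all 14. SRSF4 rose to 1.41 times its untreated level, a log2 difference of 0.49 ± 0.12 (adjusted p = 0.0042). Without untreated replicate 1 the difference was 0.42 with an adjusted p of 0.14. Against MS023 alone, at 30.8 and 34.7 CPM, Dex raised SRSF4 by 0.44 ± 0.12 (adjusted p = 0.011), again as the only call among the 10 members, with 8.97% of all genes called and 5.90% called higher (16.7% and 10.5% at the members' level). That call was lost with DESeq2 (adjusted p = 0.050), with scaling by library size alone (0.26, adjusted p = 0.29), and without MS023 replicate 1 (0.35, adjusted p = 0.26) or either library of MS023 with Dex.

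In the other groups SRSF4 stood at 36.2 and 35.9 CPM with GSK591 for 15 min, and at 36.8 and 40.4 CPM with GSK591 and Dex. At 3 h it stood at 40.1 and 33.1 CPM with GSK591 and at 38.1 and 31.2 CPM with MS023. The GSK591 and Dex group differed from untreated cells by 0.29 ± 0.12 (adjusted p = 0.16), and Dex added to GSK591 gave 0.10 ± 0.12 (adjusted p = 0.75). The effect of Dex beside GSK591 minus that beside MS023 was -0.34 ± 0.17 (95% interval -0.68 to -0.003, adjusted p = 0.46), so the rise is not shown to depend on the inhibitor. In that test of the Dex effects 0 of 10 members were called and 1 had an unadjusted p under 0.05, against 1.15% and 10.8% of all genes. Dex added to GSK591 gave 0 calls among the members with edgeR and with DESeq2, and 2 members had an unadjusted p under 0.05, against 3.70% of all genes called and 16.7% at an unadjusted p under 0.05.

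Members with small but uniform values in the Dex groups were SRSF6 and TRA2A. SRSF6 stood at 101.4 and 98.9 CPM with GSK591 and Dex and at 98.7 and 100.7 CPM with MS023 and Dex, while the other 10 libraries lay between 79.8 and 97.6 CPM. All 4 Dex libraries were above all others, which held for 2.60% of genes, and this was noticed in the values. It held with DESeq2 size factors, but with library size alone only 1 of the 10 other libraries was below all 4, and with nuclear library size alone 8 were. Dex added to MS023 gave SRSF6 a difference of 0.22 ± 0.10 (adjusted p = 0.16), and Dex added to GSK591 gave 0.09 ± 0.10 (adjusted p = 0.69). TRA2A stood at 33.5 and 35.4 CPM with GSK591 and Dex, and at 36.3 and 34.1 CPM with MS023 and Dex. The untreated libraries had 27.5 and 29.3 CPM. The differences from untreated were 0.28 ± 0.12 (adjusted p = 0.18) and 0.31 ± 0.11 (adjusted p = 0.092), but MS023 alone for 15 min already gave 32.2 and 36.5 CPM, so that Dex added to MS023 came to 0.04 ± 0.11 (adjusted p = 0.89). Beside GSK591, where TRA2A stood at 28.0 and 27.1 CPM without Dex, Dex gave 0.32 ± 0.12 (adjusted p = 0.13).

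**Figure D3:**
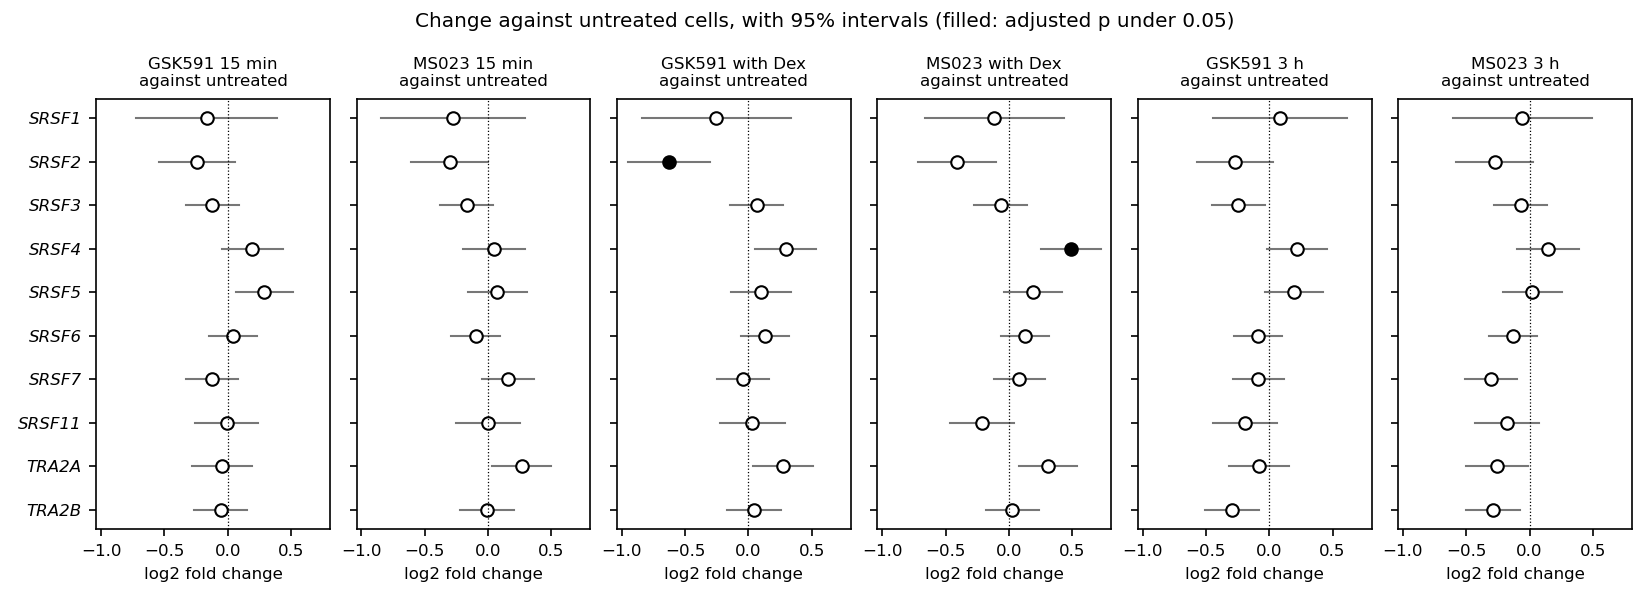
Log2 fold change of each SR gene against untreated cells in the 6 treated groups, with 95% intervals. Filled points passed the test: SRSF2 with GSK591 and Dex at -0.63, and SRSF4 with MS023 and Dex at 0.49. All panels share the same 2 untreated libraries.

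At 3 h no SR gene passed the test against untreated cells, although more of them lay below than above. With GSK591, 0 of 10 members were called while 11.0% of all genes were, 7 members were below 0, and the members' median was -0.09 against -0.01 over all genes. With MS023, 0 of 10 were called while 7.63% of all genes were, 8 members were below 0, and the median was -0.16 against -0.01. At an unadjusted p under 0.05 there were 2 members with GSK591 and 3 with MS023, where 23.8% and 19.9% of all genes were, and DESeq2 called 0 in both. Of genes at the members' level 21.1% were called with GSK591 and 15.3% with MS023.

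TRA2B, a transformer-2 homologue that binds GAA-rich exonic enhancers, was the only member whose 4 libraries of 3 h lay apart from the other 10. TRA2B stood at 42.5 and 41.5 CPM with GSK591 and at 38.4 and 46.1 CPM with MS023. In the other 10 libraries it lay between 48.5 and 54.4 CPM, above all 4 libraries of 3 h. Such a gap on the low side was seen for 4.17% of genes, and it was noticed in the values. It held with DESeq2 size factors but not with library size alone or nuclear library size alone, where 9 and 8 of the 10 were above all 4. Against untreated cells the difference was -0.29 ± 0.11 for either inhibitor, with an adjusted p of 0.066 for GSK591 and 0.09 for MS023. SRSF3 stood at 72.7 and 71.5 CPM with GSK591 for 3 h against 79.9 and 90.8 CPM untreated, a difference of -0.24 ± 0.10 (adjusted p = 0.13).

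The calls at 3 h depended on how counts were scaled and which libraries were fitted. With nuclear library size alone, and with only the groups compared in the fit, SRSF3 and TRA2B were called lower with GSK591. SRSF7 was called lower with MS023 under 4 of the alternatives, at adjusted p of 0.032 to 0.050, and when replicate 2 of MS023 at 3 h was left out. Its difference in the fit of all libraries was -0.30 ± 0.10 (adjusted p = 0.061).

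Between 15 min and 3 h of MS023, 2 of 10 members were called, SRSF7 and TRA2A, both lower, where 12.0% of all genes were called and 4.40% were called lower. Of genes at the members' level 22.6% were called and 9% lower, so 2 of 10 is near the share called at this level. SRSF7 stood at 220.3 and 238.4 CPM at 15 min and at 153.3 and 180.8 CPM at 3 h. These were the 2 highest and the 2 lowest of all 14 libraries except for the 224.4 CPM of one library with MS023 and Dex. SRSF7 fell by 0.46 ± 0.10 on the log2 scale (adjusted p = 0.0016), to 0.728 of its level at 15 min. TRA2A, the paralogue of TRA2B, stood at 32.2 and 36.5 CPM at 15 min and at 24.43 and 23.14 CPM at 3 h, the 2 lowest of all 14. TRA2A fell by 0.52 ± 0.12 (adjusted p = 0.0023), to 0.697 of its earlier level.

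Both falls ran from values above those of untreated cells to values below them. Untreated libraries had 197.3 and 213.9 CPM of SRSF7, and 27.5 and 29.3 CPM of TRA2A. Neither gene was called against untreated cells at either time with MS023. At 15 min the differences were 0.16 ± 0.10 for SRSF7 and 0.27 ± 0.12 for TRA2A (adjusted p = 0.74 and 0.55). At 3 h they were -0.30 ± 0.10 and -0.26 ± 0.12 (adjusted p = 0.061 and 0.22).

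The mitochondrial share moved between these groups too, from 42.2% ± 3.3 at 15 min to 51.8% ± 2.0 at 3 h (SD, n = 2). With nuclear library size alone, which leaves mitochondrial counts out of the scaling, SRSF7 differed by -0.34 (adjusted p = 0.028) and TRA2A by -0.41 (adjusted p = 0.020). Of the 10 listed A549 and lung markers 9 were tested, and KRT18, AKR1B10 and NQO1 were called higher at 3 h in the same comparison. Of genes at the members' level 13.6% were called higher, and the part of these markers in the result was not tested. Without replicate 1 of MS023 at 3 h the adjusted p of SRSF7 was 0.089 (-0.34), and without replicate 2 of MS023 at 15 min that of TRA2A was 0.053 (-0.43).

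With GSK591 the same genes stayed near their earlier level. SRSF7 stood at 186.3 and 191.8 CPM at 15 min and at 191.4 and 196.4 CPM at 3 h, a difference of 0.04 ± 0.10 (interval -0.17 to 0.24). TRA2A stood at 28.0 and 27.1 CPM and then at 28.5 and 25.1 CPM, a difference of -0.04 ± 0.12 (interval -0.28 to 0.20). Between 15 min and 3 h of GSK591, 0 of 10 members were called by edgeR or DESeq2, and 1 had an unadjusted p under 0.05, against 6.41% and 19.5% of all genes. A test of the difference between the inhibitors' time courses, added after the values were seen, gave -0.50 ± 0.14 for SRSF7 (adjusted p = 0.12) and -0.48 ± 0.17 for TRA2A (adjusted p = 0.24). It called 0 members and 0.561% of all genes, and 2 members, SRSF7 and TRA2A, were among the 10.0% of genes at an unadjusted p under 0.05, so the falls are not shown to be particular to MS023.

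**Figure D4:**
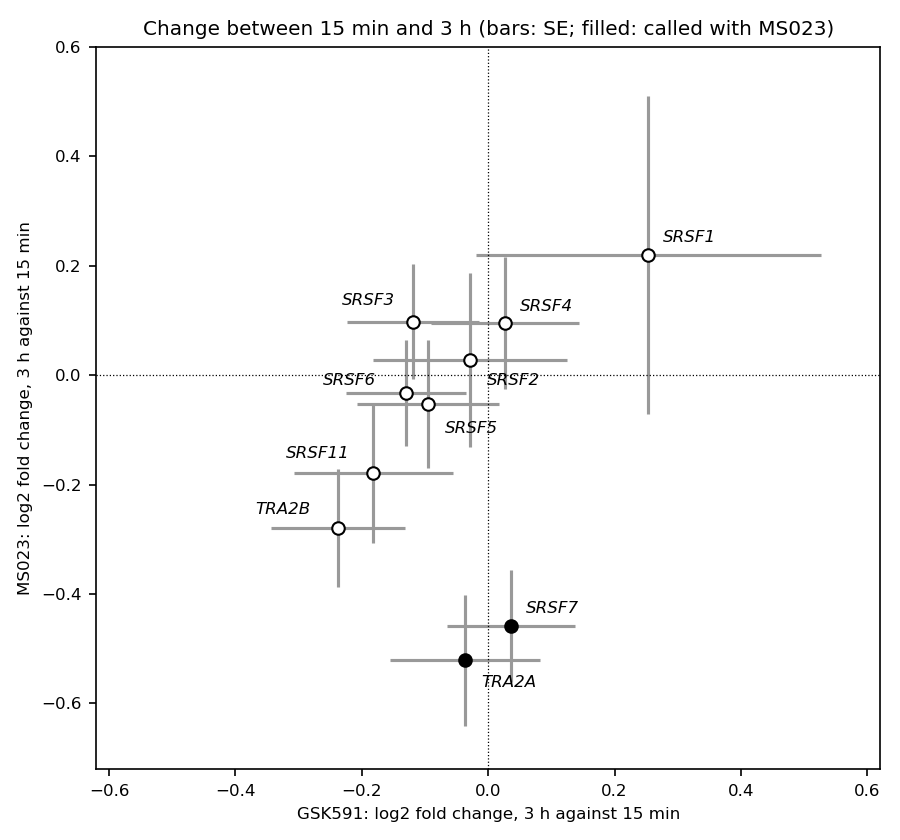
Log2 fold change between 15 min and 3 h of each SR gene, with GSK591 on the x axis and MS023 on the y axis. Bars are standard errors, and the filled points, SRSF7 and TRA2A, passed the test with MS023 at -0.46 and -0.52. These points lie near 0 on the x axis, at 0.04 and -0.04.

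Compared directly at the same dose and time, the inhibitors gave no called difference at any SR gene. At 15 min 0 of 10 members were called, with 1.09% of all genes, at 3 h 0 of 10 with 0% of all genes, and with Dex 0 of 10 with 0% of all genes. At an unadjusted p under 0.05 the members numbered 2, 1 and 0, against 9.75%, 6.02% and 7.57% of all genes, and DESeq2 called 0 members in each. The members furthest apart at 15 min were TRA2A and SRSF7. The log2 difference of GSK591 from MS023 was -0.31 ± 0.12 for TRA2A (95% interval -0.55 to -0.07, adjusted p = 0.29) and -0.28 ± 0.10 for SRSF7 (interval -0.48 to -0.07, adjusted p = 0.26). At 3 h SRSF7 differed the other way, by 0.22 ± 0.10 (interval 0.01 to 0.42, adjusted p = 0.80). With Dex the intervals of all 10 members included 0, for example -0.19 to 0.20 for SRSF6 and -0.19 to 0.23 for TRA2B.

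SRSF1, SRSF3, SRSF5, SRSF6, SRSF11 and TRA2B were called in none of the 14 comparisons. SRSF1, the founding SR protein gene, ranged from 3.21 to 5.12 CPM, and its 95% intervals against untreated cells reached from -0.85 to 0.62, wide enough to hold changes as large as those called at other members. SRSF11, whose product is an SR-related protein, ranged from 22.8 to 32.3 CPM, with log2 differences of -0.21 to 0.03 against untreated cells. SRSF5 ranged from 44.8 to 62.2 CPM. For SRSF3 the range was 71.5 to 93.7 CPM.

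The members did not move as a block. Averaged over the 10 genes, each centred on its own mean log2 CPM, the groups ran from -0.11 with MS023 for 3 h and -0.05 with GSK591 for 3 h to 0.07 with MS023 and Dex, with untreated cells at 0.03. Over the 7 group means SRSF7 and TRA2A were the pair most alike (Pearson r = 0.85), followed by TRA2A and TRA2B (r = 0.83) and by SRSF6 and TRA2B (r = 0.74). SRSF2 and SRSF4 were the least alike (r = -0.69). Of 9975 other genes with at least 10 CPM, those whose group means were most like the members' average were AK4, TTC17, C1R, DNHD1 and PFKP (r = 0.98 for AK4 to 0.975 for PFKP). Their changes span a wider range, for C1R from -0.58 with MS023 for 3 h to 0.53 with MS023 and Dex. These are descriptions over 7 points that share libraries.

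The rest of the SR pathway was read from 5 lists, chosen with earlier results of these data known. After 15 min of either inhibitor no gene of these lists was called. At 3 h against untreated cells, the 22 SR-related proteins gave 1 call higher and 6 lower with GSK591, and 0 higher and 5 lower with MS023, with medians of -0.19 and -0.21 against -0.01 over all genes, of which 7.25% and 5.40% were called higher and 3.79% and 2.23% lower. Of genes at the members' level 13.4% and 10.5% were called higher and 7.71% and 4.79% lower. In the Dex groups the list of SR-related proteins had 0 calls in either direction against untreated cells. SREK1, a regulator that binds SR proteins, fell with MS023 from 43.7 ± 2.0 to 28.2 ± 2.1 CPM, by 0.64 ± 0.12 on the log2 scale (adjusted p = 0.00039). It also fell with GSK591, by 0.42 (adjusted p = 0.017). RBM39, a U2AF-like splicing factor with an RS domain, fell with GSK591 from 117.1 ± 2.5 to 79.7 ± 1.9 CPM, by 0.56 (adjusted p = 0.00099), and with MS023 by 0.44 (adjusted p = 0.012). PNN, which encodes the nuclear speckle protein pinin, fell with MS023 by 0.59 (adjusted p = 0.0035).

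Other SR proteins moved in either direction. Of the 4 on the list, SRSF9 rose at 3 h, from 15.8 ± 3.8 CPM to 24.5 ± 0.43 with GSK591 (0.63, adjusted p = 0.0019) and to 21.9 ± 2.2 with MS023 (0.48, adjusted p = 0.034). SRSF10, whose product represses splicing when dephosphorylated, fell with GSK591 at 3 h from 32.5 ± 0.18 to 24.0 ± 1.9 CPM (-0.44, adjusted p = 0.016). In the Dex groups it rose instead, to 43.9 ± 4.3 CPM with GSK591 (0.44, adjusted p = 0.021) and to 43.3 ± 2.3 CPM with MS023 (0.41, adjusted p = 0.020). Against MS023 alone, where 5.90% of all genes and 10.5% at the members' level were called higher, Dex raised 3 of the 4, SRSF9, SRSF10 and SRSF12. SRSF12 is low, at 0.958 ± 0.13 CPM with MS023 and 2.72 ± 0.45 CPM with Dex added. Added to GSK591, Dex gave 0 calls among the 4, with SRSF9 at -0.08 (adjusted p = 0.85) and SRSF10 at 0.37 (adjusted p = 0.073). The difference between the Dex effects beside GSK591 and beside MS023 was called for 0 of the 4.

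Among 12 kinases, phosphatases and import factors of SR proteins, 2 were called higher and 0 lower with GSK591 at 3 h, and 1 higher and 0 lower with MS023. Of all genes 7.25% and 5.40% were called higher, and of genes at the members' level 13.4% and 10.5%, so both counts are near the background. PPP1CA, a catalytic subunit of protein phosphatase 1, rose in both, by 0.53 ± 0.11 (adjusted p = 0.00045) and 0.42 (adjusted p = 0.0082). SRPK1, a kinase that phosphorylates RS domains, rose with GSK591 at 3 h from 16.7 ± 0.44 to 24.8 ± 3.9 CPM (adjusted p = 0.013) and with GSK591 and Dex to 25.8 ± 8.1 CPM (adjusted p = 0.015). DYRK1A, a kinase with splicing factors among its substrates, rose in both Dex groups, from 53.3 ± 2.2 to 71.2 ± 1.7 CPM in that with GSK591 (adjusted p = 0.0087) and to 74.6 ± 2.2 CPM in that with MS023 (adjusted p = 0.0010).

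Of 14 hnRNP genes, 2 were called lower with GSK591 and 1 with MS023 at 3 h, and none higher, where 3.79% and 2.23% of all genes were called lower. At the members' level 7.71% and 4.79% of genes were called lower, and the count with MS023 is a single gene. HNRNPA1, an antagonist of SRSF1 in splice site choice, fell from 135.4 ± 11.7 to 102.8 ± 8.6 CPM with GSK591 (-0.40, adjusted p = 0.0057) and to 105.9 ± 4.3 CPM with MS023 (-0.36, adjusted p = 0.018). PTBP1 fell with GSK591 and Dex, by 0.36 (adjusted p = 0.038). Of 14 factors of nonsense-mediated decay, 1 was called higher and 2 lower with GSK591 at 3 h, and 1 higher and 1 lower with MS023. Of all genes 7.25% and 5.40% were called higher and 3.79% and 2.23% lower, so the counts of 1 are near the background. At the members' level the shares were 13.4% and 10.5% higher and 7.71% and 4.79% lower. UPF1, the central helicase of this pathway, rose by 0.41 (adjusted p = 0.0053) and 0.46 (adjusted p = 0.0026), and with MS023 and Dex from 45.3 ± 3.2 to 65.4 ± 0.49 CPM (adjusted p = 0.00044). MAGOH, a core part of the exon junction complex, fell from 8.74 ± 0.03 to 4.37 ± 1.6 CPM with GSK591 (adjusted p = 0.0014) and to 5.21 ± 0.27 CPM with MS023 (adjusted p = 0.024).

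**Figure D5:**
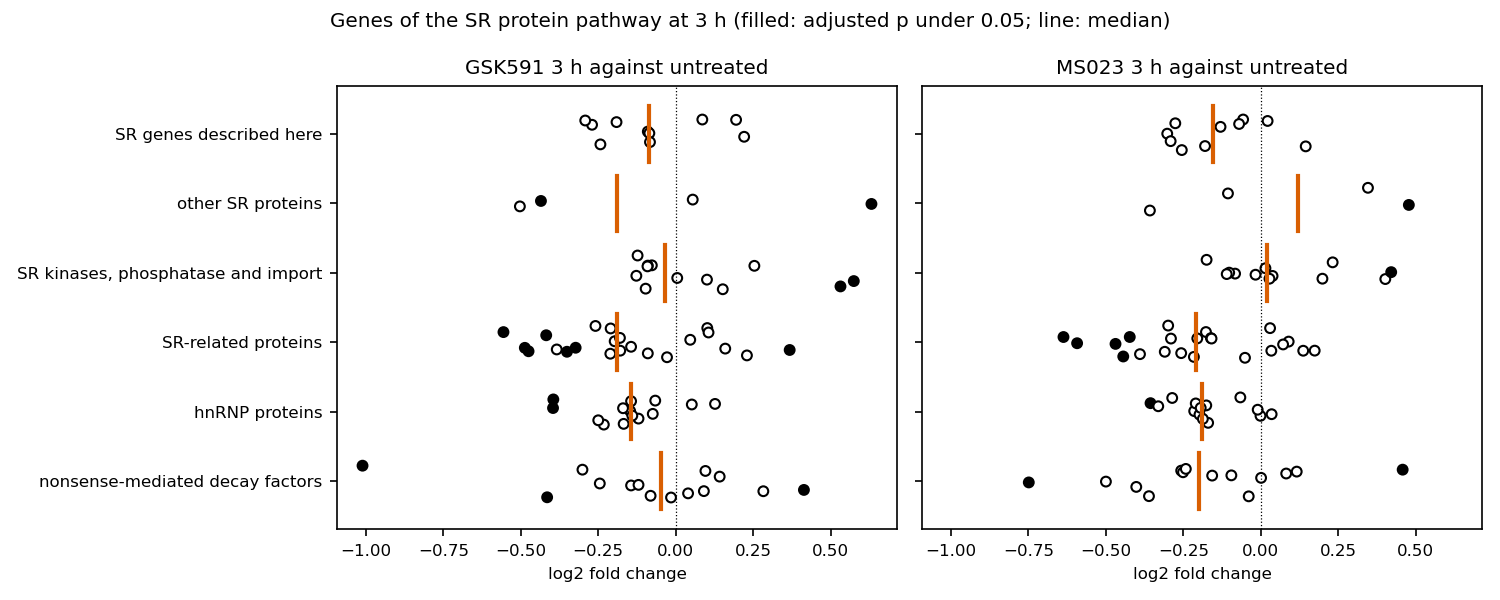
Log2 fold change at 3 h against untreated cells for the 10 SR genes and for 5 lists of related genes, with GSK591 at the left and MS023 at the right. Each point is a gene, filled where it was called, and vertical lines are medians. No SR gene of the top row is filled, and filled points of the SR-related proteins lie mostly below 0, down to -0.64 for SREK1 with MS023.

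In the authors' deposited tables of each treatment against control, none of the 10 genes had an adjusted p under 0.05, and SRSF1 had none given in 4 of the 6 tables. SRSF2 has a log2 fold change of -0.68 ± 0.27 (SE) with GSK591 and Dex and an adjusted p of 0.30, in the authors' deposited table for that group. SRSF4 with MS023 and Dex has 0.42 ± 0.20 and an adjusted p of 0.43 in the authors' deposited table. The smallest adjusted p among the 10 in the authors' deposited tables was 0.15, for SRSF7 with MS023 at 3 h (-0.35 ± 0.14). The direction was the same as in the fit above for these 3 genes, and the standard errors were larger.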

How the data were processed

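PRO-seq of A549 cells gave 14 libraries in 7 groups of 2. The authors deposited a table of whole-number read counts per gene, made with featureCounts 2.0.1 (Subread) on hg38 per the submitters' processing notes; the aligner, the counted feature, the strand setting and the treatment of duplicates are not given in the sources used here. They also deposited 6 DESeq2 tables with a mean signal (baseMean), a log2 fold change, a test score and a p-value per gene, per the file headers.

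Counts were tested as deposited with edgeR 4.0.16 (R 4.3.3): TMM scaling, edgeR's expression filter (21910 genes), 1 coefficient per group and all 14 libraries in one quasi-likelihood fit with 7 residual degrees of freedom (biological coefficient of variation 0.073). P-values were adjusted over all genes tested by Benjamini and Hochberg's method within each of 14 contrasts, and genes under 0.05 were called. CPM was taken on TMM-scaled library sizes and divided by GENCODE 29 exon length to compare genes. All 58780 identifiers matched GENCODE 29, and promoters came from RefSeq. The functions were tested on simulated data. Alternatives were DESeq2 1.42.0, other scalings, no filter, only the groups compared, a replicate block and leaving out libraries.

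All 10 members are named. Genes of other lists are named where called in at least 1 contrast, at most 3 per list by adjusted p against untreated. SRSF12 and other listed genes named beyond this rule were chosen after their values were seen. The members and lists were chosen with earlier results of these data known.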

Additional observations from a re-analysis of the deposited data

How the results depend on the processing

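The number of the 10 SR genes called kept its value under every alternative run in 7 of the 14 comparisons: each inhibitor at 15 min against untreated, the difference between the Dex effects, GSK591 at 3 h against 15 min, and the 3 direct comparisons of the inhibitors, all with 0 calls. In the other 7, MS023 with Dex against untreated had 3 calls (SRSF4, SRSF2, TRA2A) instead of 1 with only the groups compared. GSK591 at 3 h against untreated had 2 (SRSF3, TRA2B) instead of 0 with nuclear library size alone and with only the groups compared. MS023 at 3 h had 1 (SRSF7) instead of 0 with nuclear library size alone, with no count filter, with only the groups compared and with the replicate block. Dex added to GSK591 had 1 (SRSF2) instead of 0 with library size alone, and Dex added to MS023 had 0 instead of 1 with library size alone and with DESeq2. Leaving out each library in turn gave 0 to 1 calls for GSK591 with Dex, 0 to 2 for MS023 with Dex, 0 to 1 for MS023 at 3 h, 0 to 1 for Dex added to MS023, 1 to 2 for MS023 at 3 h against 15 min, and 0 elsewhere. The lone library left in a group was assumed to vary like the other groups. Log2 fold changes were followed only for genes called under at least 1 setting of a comparison. None of these reversed, but that selection made a reversal unlikely. The cause of the moves in the number of calls was not tested.

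No pairing of the samples by replicate number was seen: over 21 pairs of groups the correlation of same-numbered libraries' deviations was -0.073 to 0.111 (median 0.018). It was taken over all tested genes with equal weight, those with few counts included. A pairing that touched few genes, or one hidden by the noise of low counts, could be missed. The replicate block changed 1 call, that of SRSF7 with MS023 at 3 h (adjusted p = 0.045). Library size alone moved the median of all genes by up to -0.21 (Dex added to GSK591). With 2 libraries a group, log2 standard errors between 2 groups of about 0.1 at 8 members, 0.15 to 0.17 at SRSF2 and 0.3 at SRSF1 limit what can be seen.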
